A study of Oryza sativa Indica Group with 11 samples.

Results

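Chalcone synthase and chalcone isomerase catalyse the entry steps of flavonoid synthesis. Chalcone synthase joins a coumaroyl-CoA from the phenylpropanoid pathway with malonyl-CoA units to a chalcone, and chalcone isomerase closes the chalcone to a flavanone, from which flavones, flavonols, anthocyanins and proanthocyanidins are made. Flavonoids are known in plants as ultraviolet screens, antioxidants and pigments. The members described here are all probe sets that the array annotation and the RefSeq gene table give to CHS1 (LOC4350636) and to CHI (LOC4334588). The rule names the genes and uses no measured value, but the genes were picked with earlier results of these data known. They are 2 of the 17905 genes named on the array, with 5 probe sets for CHS1 and 1 for CHI among the 57258 tested. A probe set is a group of short probes on the array that together give 1 intensity for a transcript. CHS2, another chalcone synthase gene of the RefSeq table, has no probe set in the annotation used here.

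RNA came from crown and growing point tissue of rice, and 1 biotin-labelled sample, dissected from several plants, was hybridised per Affymetrix rice array. The 11 arrays hold FL478 as control plants (3 arrays) and as salt-stressed plants (3 arrays), and IR29 as control plants (2 arrays) and as salt-stressed plants (3 arrays). FL478 is 1 recombinant inbred line, known as salt tolerant, that was bred by crossing the landrace Pokkali with IR29, an indica cultivar known as sensitive to salt, so the lines share part of their genome and a difference between them stands for these lines only. The labels used here give neither the dose and duration of the stress nor the age of the plants. They do not say whether replicates came from separate plantings, so p-values measure the spread between these samples, which may be technical.

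The arrays had been scaled to a common trimmed mean of 500.1, and their number limits the precision of every value. FL478 salt replicate 2 lay at -94.25 on the fourth principal component, where the other arrays lay between -16.89 and 35.25, and IR29 control replicate 1 lay at -95.15 on the second, next to FL478 control replicate 3 at -67.47. The CHS1 and CHI results in FL478 and between the lines under salt are given with and without them, as is the CHS1 difference in IR29. The other differences of the 2 genes have ranges that leave out 1 array at a time. The values of pathway genes, neighbours and markers are given with all arrays only. The 13 genes listed for the growing point summed to between 17961 and 21934 intensity units on the 11 arrays. Among them HOS58 lay between 5971.2 and 7722.6, and the KNOX gene OSH1 between 3200.2 and 6873.1. Whether the listed genes are specific to the labelled tissue was not tested. The dissected tissue is a mixture, so fewer cells with a transcript and less of it per cell cannot be told apart.

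Of the 5 CHS1 probe sets 1 was by far the brightest, called the bright CHS1 probe set here, and its intensity stood out on the salt-stressed IR29 arrays. It was 3798.2, 3665.0 and 1777.9 in IR29 salt replicates 1, 2 and 3. The IR29 controls had 695.5 and 442.2. In FL478 the controls had 687.0, 493.3 and 703.6, and the salt arrays 598.0, 860.1 and 569.6. The 3 IR29 salt arrays all lay above the 8 others, with replicate 3 the lowest of them, while the other 3 groups overlapped. The group means were 3080 ± 1130 in salt-stressed IR29 (SD, n = 3), 676 ± 160 in salt-stressed FL478 (SD, n = 3), 628 ± 117 in control FL478 (SD, n = 3) and 569 ± 179 in control IR29 (SD, n = 2). In that order only the first mean differed from the next by more than the spread of the groups.

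CHI had the same group at the top. Its intensity was 4008.4, 3123.1 and 2565.8 in IR29 salt replicates 1, 2 and 3, and the IR29 controls had 1189.9 and 1540.6. The FL478 salt arrays had 1143.0, 2176.5 and 1051.2 and the FL478 controls 1072.2, 1449.3 and 886.4. The IR29 salt arrays again lay above all others, but the gap to FL478 salt replicate 2, which was the brightest FL478 array for both genes, was small: the lowest IR29 salt array was 1.18 times as bright. The group means were 3232 ± 727 in salt-stressed IR29 (SD, n = 3), 1457 ± 625 in salt-stressed FL478 (SD, n = 3), 1365 ± 248 in control IR29 (SD, n = 2) and 1136 ± 287 in control FL478 (SD, n = 3). The last 3 did not differ beyond their spread.

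**Figure D1:**
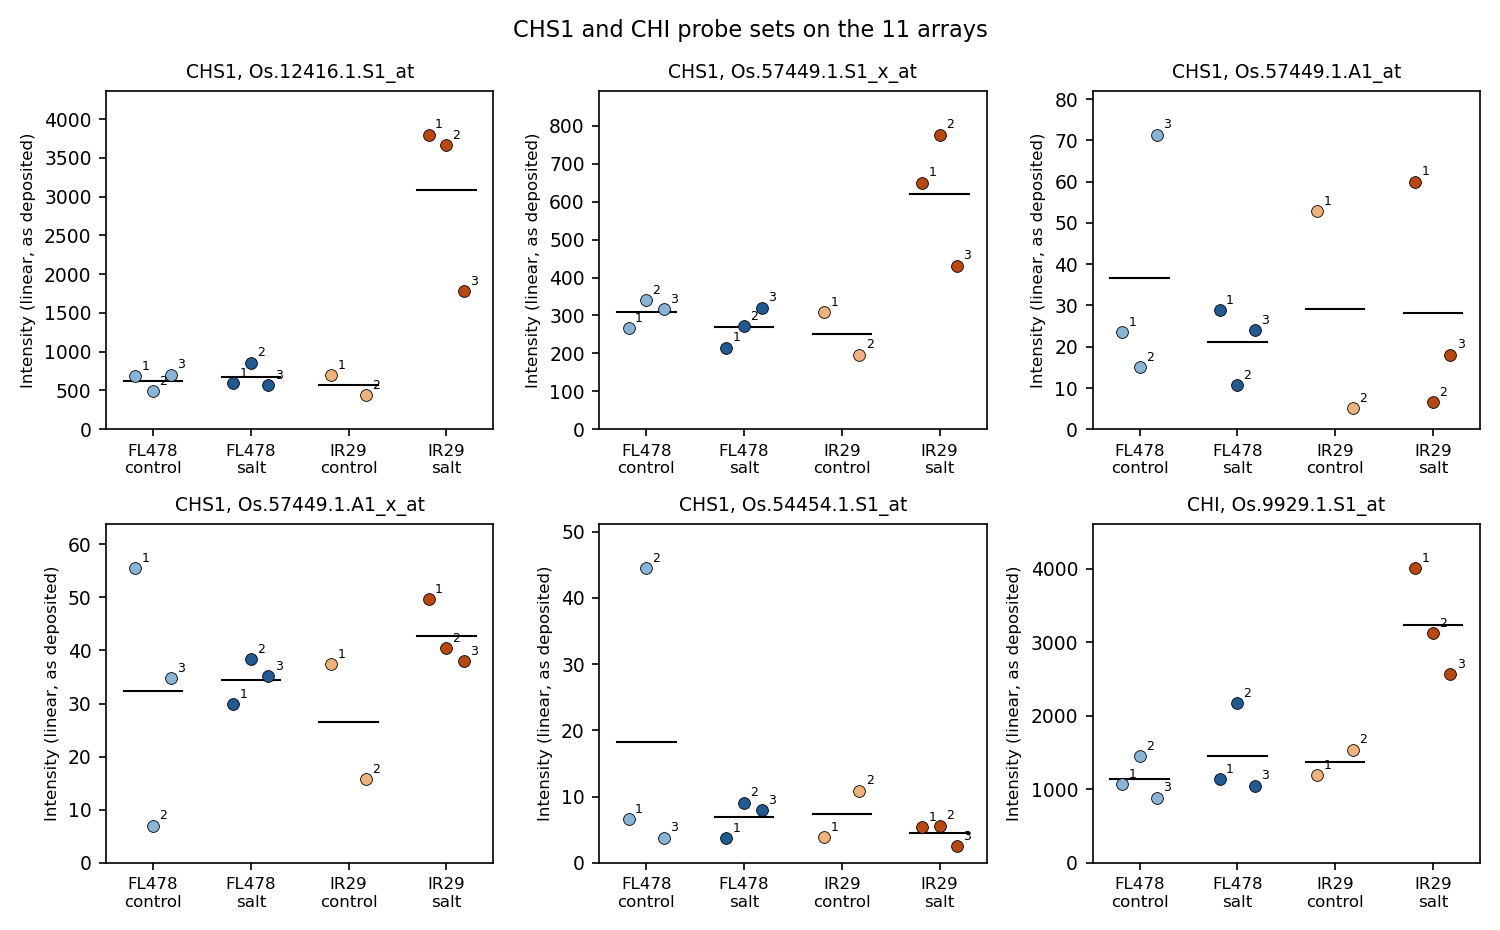
Intensity as deposited (linear scale, vertical axis from 0, a separate range per panel) of the 6 probe sets on each array, with the replicate number beside each point and a bar at the mean of each group. In the panels of the bright CHS1 probe set, of the second CHS1 probe set (suffix S1_x_at) and of CHI the 3 salt-stressed IR29 arrays lie above the other 8, while the other 3 panels show low intensities whose groups mostly overlap.

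The other CHS1 probe sets did not all show this pattern. The second CHS1 probe set, whose name ends in S1_x_at, did, with 650.1, 776.6 and 431.7 on the salt arrays of IR29 and 308.0 and 196.9 on its controls. The FL478 salt arrays had 215.3, 271.8 and 320.7 and the FL478 controls 267.1, 340.5 and 316.1. The suffix _x_at marks a probe set with probes that may also match other transcripts, so it is not taken as a separate measurement of CHS1 alone. The dimmest probe set ran from 2.5 to 44.5 and lay under an intensity of 16, the pseudocount used for the log scale, on 10 of 11 arrays. The A1_at probe set ran from 5.2 to 71.4 with 4 arrays under 16, and the A1_x_at probe set from 7.0 to 55.5 with 2 arrays under 16. The A in such a name can mark an antisense orientation, which could not be checked here without probe sequences. These 3 dim probe sets are not shown to exceed background. No detection calls were used here.

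The first comparison asked how salt-stressed and control plants of each line differ. Values were compared as log2 of the intensity plus 16, after quantile normalization, with limma over all probe sets and Benjamini-Hochberg adjustment, and a call required an adjusted p under 0.05. In IR29 the bright CHS1 probe set was 4.98-fold brighter under salt (log2 difference 2.32 ± 0.32, SE, 95% interval 1.62 to 3.02, n = 3 and 2). Its adjusted p of 0.0863 in limma missed the threshold, although only 6 of 57258 probe sets had a smaller p and 29 had a larger log2 difference. The second CHS1 probe set had 1.16 ± 0.26 (SE, adjusted p = 0.249 in limma), and CHI was 2.31-fold brighter (1.21 ± 0.30, SE, 95% interval 0.55 to 1.87, adjusted p = 0.303 in limma). None of the 6 probe sets was called, in a comparison where limma called 0.00524% of all probe sets. At an unadjusted p under 0.05 in limma 3 of 6 were higher under salt, against 3.60% of all probe sets. The 6 probe sets stand for only 2 genes, which were picked with earlier results of these data known. Here and below, such counts beside the share of all probe sets are descriptions and not tests.

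The IR29 salt arrays all lay above both IR29 controls at 4 of 6 probe sets, against 10.8% of all probe sets. Besides the 3 just given, these include the dim A1_x_at probe set, with 49.7, 40.4 and 38.0 under salt, 37.4 and 15.8 in controls, and a log2 difference of 0.68 ± 0.48 (SE). The A1_at probe set had 0.20 ± 0.61 (SE) and the dimmest had -0.13 ± 0.41 (SE). Whether CHS1 was called depended on 1 array and on the setting, with a call in 4 of the 22 alternatives that kept this probe set. The adjusted p in limma was 0.0166 without IR29 salt replicate 3, its lowest salt array, and 0.425 without IR29 salt replicate 1. The fit with the replicate number as a block, in which the numbers are not shown to pair the arrays, called it as well (adjusted p = 0.0469). Median centring gave an adjusted p of 0.0233 and robust variance estimates gave 0.0347. Over these 22 alternatives its log2 difference lay between 1.98 and 2.67. Without both arrays that stand apart, the CHS1 difference was 2.65 (adjusted p = 0.0934 in limma), in a fit where the IR29 control is 1 array that is assumed to vary like the other groups. The CHI difference ran from 1.04 to 1.38 and was called in none of its 22 alternatives, with adjusted p values of 0.0981 to 0.743.

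In FL478 no difference between salt and control was detected at either gene. The bright CHS1 probe set had a log2 difference of 0.073 ± 0.29 (SE, n = 3 and 3, 95% interval -0.55 to 0.70, adjusted p = 0.994 in limma). That interval covers changes from 0.68-fold to 1.62-fold. CHI had 0.30 ± 0.27 (SE, 95% interval -0.29 to 0.89, adjusted p = 0.963 in limma), or 0.82-fold to 1.85-fold. Without FL478 salt replicate 2 both values lay below 0, at -0.098 for CHS1 and -0.036 for CHI, so the direction rests on that array. The CHS1 value was also below 0, at -0.080, without FL478 control replicate 2. Limma called 0 of 6 probe sets, against 0.00873% of all, and an unadjusted p under 0.05 marked 0 of 6 as higher, against 2.81% of all. At 0 of 6 did all FL478 salt arrays lie above all FL478 controls, against 5.49% of all probe sets.

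**Figure D2:**
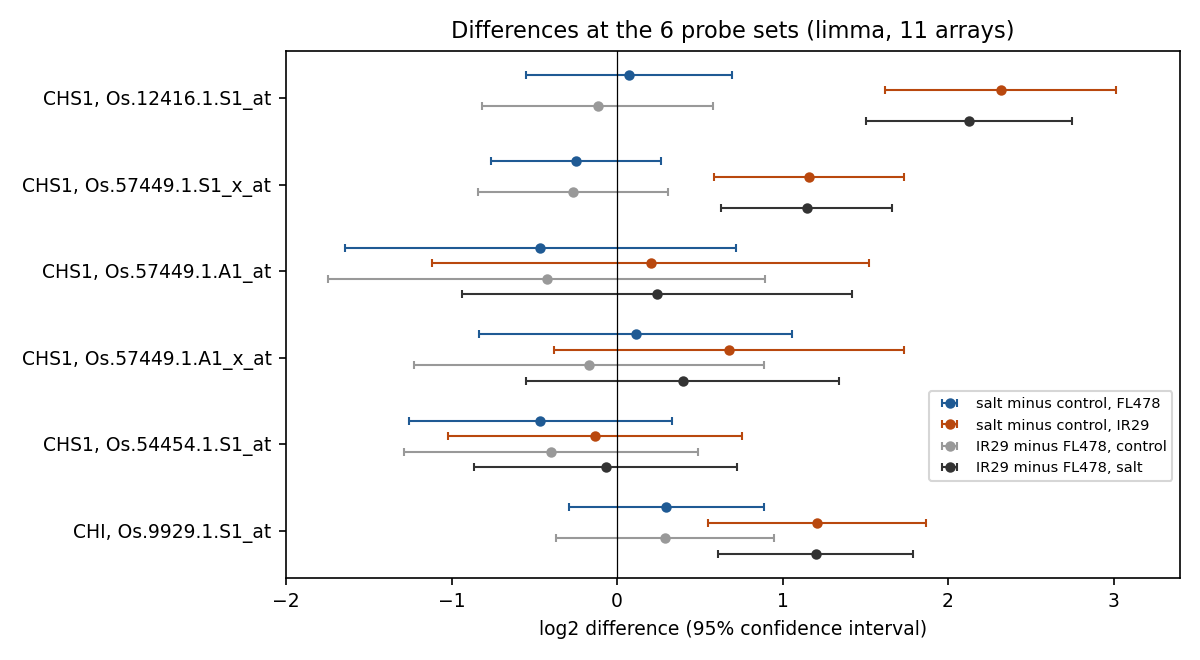
Log2 differences (horizontal axis) at the 6 probe sets (rows) in 4 comparisons, with points for the limma estimates and bars for 95% confidence intervals. For the bright CHS1 probe set the interval of the IR29 salt difference runs from 1.62 to 3.02, and that of FL478 from -0.55 to 0.70.

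The second comparison tested the difference between the salt responses directly. At the bright CHS1 probe set the IR29 response exceeded that of FL478 by 2.24 ± 0.43 on the log2 scale (SE, 95% interval 1.31 to 3.18), with an adjusted p of 0.618 in limma. The second CHS1 probe set had 1.41 ± 0.35 (SE, adjusted p = 0.746 in limma) and CHI 0.91 ± 0.41 (SE, 95% interval 0.025 to 1.80, adjusted p = 0.916 in limma). No member was called, and limma called 0 of 57258 probe sets (0%), with 1543 (2.69%) higher at an unadjusted p under 0.05, among them 3 of the 6 members. No alternative called either gene: the adjusted p ranged from 0.260 to 1.00 for the bright CHS1 probe set and from 0.644 to 1.00 for CHI. A difference between the responses of the lines is thus not shown by a call, and is given as an estimate with its interval.

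The third comparison set IR29 against FL478. In control plants the lines did not differ detectably. The bright CHS1 probe set had an IR29 minus FL478 log2 difference of -0.12 ± 0.32 (SE, n = 2 and 3, 95% interval -0.82 to 0.58, adjusted p = 0.962 in limma), which was 0.21 without IR29 control replicate 2. CHI had 0.29 ± 0.30 (SE, 95% interval -0.37 to 0.95, adjusted p = 0.856 in limma). Limma called 0 of 6 probe sets, against 0.814% of all.

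Under salt both genes were called higher in IR29. The bright CHS1 probe set was 4.37-fold higher (log2 difference 2.13 ± 0.29, SE, n = 3 and 3, 95% interval 1.50 to 2.75, adjusted p = 0.00180 in limma). CHI was 2.30-fold higher (1.20 ± 0.27, SE, 95% interval 0.61 to 1.79, adjusted p = 0.0483 in limma), and the second CHS1 probe set was 2.21-fold higher (1.14 ± 0.24, SE, adjusted p = 0.0293 in limma). These are 3 of 6 members, where limma called 1.73% of all probe sets. Since the members stand for only 2 genes, this count and the next are descriptions. At 4 of 6 every IR29 salt array lay above every FL478 salt array, against 8.65% of all. At 1 of these, the dim A1_x_at probe set, this holds after normalization only, since as deposited 38.0 in IR29 lay under 38.4 in FL478.

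The CHS1 call held in each of the 22 alternatives that kept this probe set, with adjusted p values from 0.000369 to 0.0145 in limma and log2 differences from 1.94 to 2.48. It ended when all 5 CHS1 probe sets were averaged (log2 difference 0.77, adjusted p = 0.312), a mean in which 3 of 5 values are dim. The CHI call held in 10 of 22 alternatives, with adjusted p values from 0.00398 to 0.225. Of the 11 fits that each left out 1 array, 2 kept the CHI call: the adjusted p was 0.0401 without FL478 control replicate 2, and 0.00398 when the second FL478 salt array was left out. Without both arrays that stand apart, CHI was called with an adjusted p of 0.00641 and CHS1 with 0.00346. The call at the second CHS1 probe set held in 13 of 22 alternatives, with adjusted p values from 0.00930 to 0.147.

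**Figure D3:**
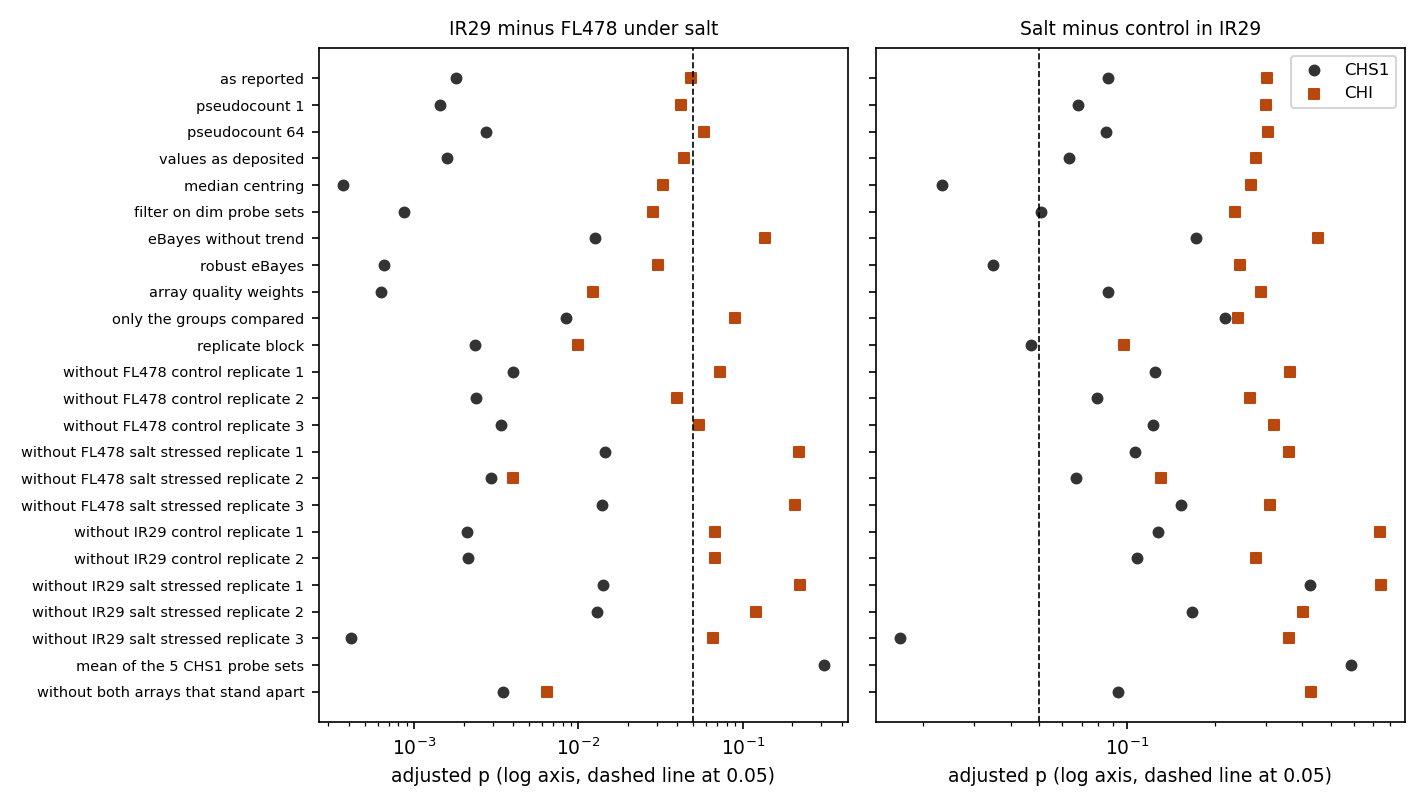
Adjusted p (log axis, limma) of the bright CHS1 probe set (circles) and CHI (squares) under each processing alternative (rows), for IR29 against FL478 under salt (left) and for salt against control in IR29 (right), with a dashed line at 0.05. On the left the CHS1 values from this probe set lie between 0.000369 and 0.0145, while the CHI values lie on both sides of the line.

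CHS1 and CHI were compared array by array. On the log2 scale the IR29 salt arrays lay at 11.90, 11.84 and 10.82 for CHS1 and at 11.98, 11.62 and 11.34 for CHI, apart from the other arrays, so no correlation is tested over all arrays. Replicate 3 was the lowest for both genes. Over the 8 other arrays the genes showed no detectable relation (Pearson r = 0.09, exact permutation p = 0.841, and Spearman rho = -0.02, exact permutation p = 0.977, both two-sided). The adjusted values over the 2 relations computed were the same. The permutations ran over all 8 arrays without regard to their group, and 8 arrays are too few to exclude a relation. Without the 2 arrays farthest from the CHS1 median, FL478 salt replicate 2 and IR29 control replicate 2, r was -0.56 over 6 arrays. The second relation, between the bright and the second CHS1 probe set over the same 8 arrays, gave r = 0.17 (exact permutation p = 0.681, adjusted p = 0.841) and rho = 0.17 (exact permutation p = 0.703, adjusted p = 0.977), with r = -0.18 over 6 arrays. Outside salt-stressed IR29 these CHS1 probe sets therefore did not detectably follow each other.

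**Figure D4:**
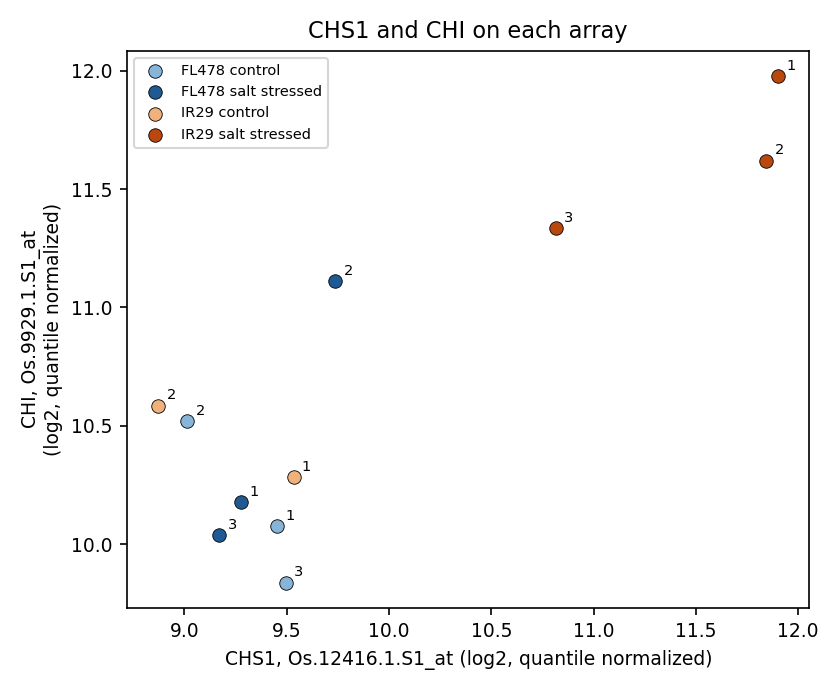
CHI (vertical axis) against the bright CHS1 probe set (horizontal axis), both as log2 of the normalized intensity plus 16, with 1 point per array, colours for the 4 groups and replicate numbers beside the points. The 3 salt-stressed IR29 arrays lie apart at the upper right, above 10.8 for CHS1, while FL478 salt replicate 2 has the highest CHI value of the other arrays, 11.11.

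The rest of the pathway was described from a list of symbols for enzymes before and after these steps and for regulators. It matched 12 further genes with a probe set. They are 7 genes of the phenylpropanoid entry, 3 genes named 4CL-like and 2 MYB genes. The entry genes are all PAL or 4CL genes, since no symbol for a cinnamate hydroxylase matched. Of the MYB genes, MYBS3 was matched through a synonym, myb30, and the tables used here give it no role in flavonoid synthesis. For the later flavonoid steps the 1 symbol matched was LDOX2, a leucoanthocyanidin dioxygenase, and it has no probe set here. In IR29 9 of the 12 lay above 0, with a median log2 difference between salt and control of 0.18, against 48.7% of all probe sets above 0 and a median of -0.011. In FL478 5 of 12 lay above 0 with a median of -0.059, against 50.6% and 0.0036. Limma called none of the 12 in either line, while an unadjusted p under 0.05 marked 2 of 12 as higher in IR29 and 1 of 12 in FL478. Over all probe sets limma called 0.00524% in IR29 and 0.00873% in FL478, and 3.60% and 2.81% were higher at that unadjusted p.

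PAL06, a phenylalanine ammonia-lyase gene of the step that feeds the phenylpropanoid pathway, had 129.1, 122.2 and 198.1 in IR29 salt replicates 1, 2 and 3, and 53.3 and 40.1 in its controls. The IR29 groups did not overlap, with a log2 difference of 1.44 ± 0.37 (SE, adjusted p = 0.317 in limma). In FL478 it had 57.8 to 143.3 under salt and 103.7 to 150.7 in controls (-0.55 ± 0.33, SE, adjusted p = 0.941 in limma). These values are from the brighter of its 2 probe sets, an _x_at one that may also match other genes. The values of the other are not given here. The difference between these responses was 1.99 ± 0.50 (SE, unadjusted p = 0.00180, adjusted p = 0.746 in limma). Among the 12 genes PAL06 was thus higher and 4CLL7 lower in this difference at an unadjusted p under 0.05.

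The 4CL genes code for 4-coumarate-CoA ligases, which make the coumaroyl-CoA that chalcone synthase uses. 4CL3 had 713.5 to 1198.8 in the IR29 salt arrays and 470.7 to 607.7 in the controls, without overlap (0.83 ± 0.24, SE, adjusted p = 0.381 in limma), and 0.14 ± 0.21 (SE) in FL478. The other ligase genes had IR29 log2 differences from -0.04 for 4CL1 to 0.68 for 4CL5. The second PAL gene, LOC4330034, had 0.23 ± 0.15 (SE). 6 of the 7 genes of the phenylpropanoid entry lay above 0 in IR29, with a median of 0.54, and 4 of 7 in FL478, with a median of 0.066. In control plants 0 of these 7 lay above 0 for IR29 minus FL478, with a median of -0.19, against 50.5% of all probe sets above 0. None of the 7 was called, against 0.814% of all. The lowest values were those of PAL06 (-1.30 ± 0.37, SE, adjusted p = 0.200 in limma) and 4CL5 (-1.21 ± 0.52, SE, adjusted p = 0.518 in limma). The IR29 salt difference of PAL06 thus starts from a lower control value than that of FL478.

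The 4CL-like gene 4CLL7, whose enzyme role is not given in the tables used here, was the 1 gene of the 12 that limma called in any of the 5 comparisons, and it was called between the lines in control plants. It had 727.2 and 671.7 in IR29 control replicates 1 and 2 and ran from 306.5 to 400.0 in control FL478, a log2 difference of 0.96 ± 0.17 (SE, adjusted p = 0.0241 in limma). Under salt the line difference was 0.43 ± 0.16 (SE, adjusted p = 0.280 in limma). The difference between its salt responses was -0.53 ± 0.23 (SE, unadjusted p = 0.0426, adjusted p = 0.916 in limma). The MYB factor genes MYB4 and MYBS3 had IR29 log2 differences of 0.003 ± 0.41 and 0.12 ± 0.33 (SE).

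**Figure D5:**
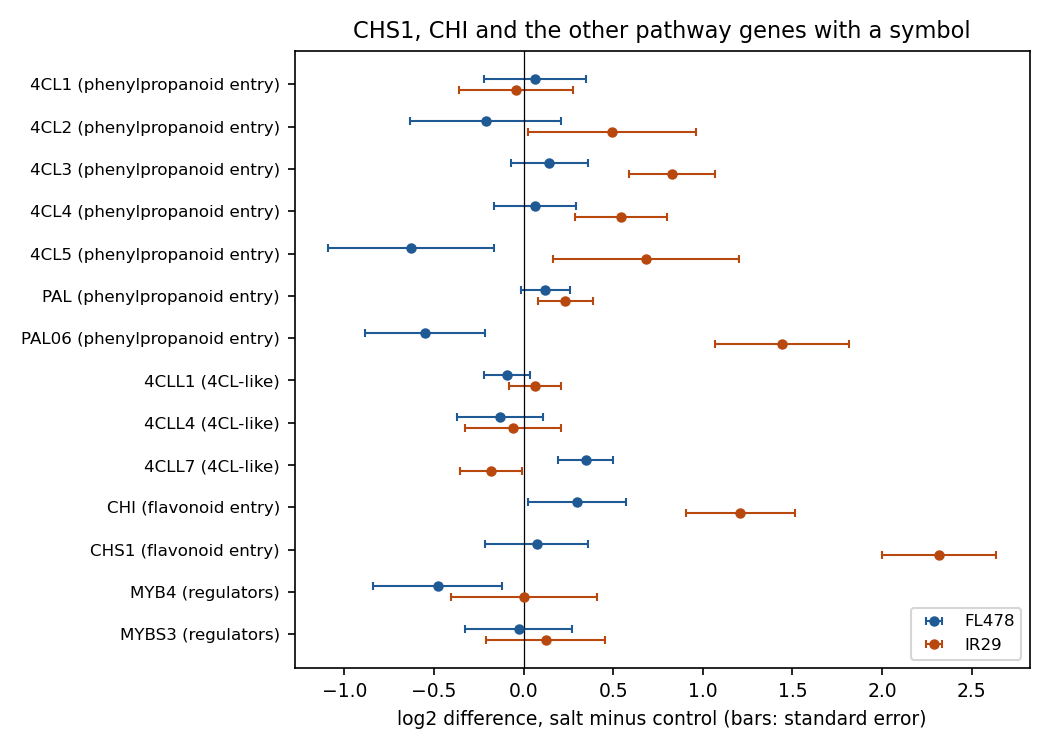
Log2 difference between salt and control (horizontal axis, points with standard error bars) for CHS1, CHI and the 12 other pathway genes (rows), in FL478 (blue) and IR29 (orange). CHS1 at 2.32, PAL06 at 1.44 and CHI at 1.21 have the largest IR29 values of these genes, and the FL478 values run from -0.63 to 0.35.

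Genes with a pattern like that of the members were sought among 2153 genes with a symbol and a mean log2 value of at least 6, by Pearson correlation over the 11 arrays. The arrays share their groups and line backgrounds, so these values are descriptions, and each r includes the separation of the salt-stressed IR29 arrays from the rest. For the bright CHS1 probe set the nearest were the potassium transporter gene HAK22 (r = 0.94), Pi21 (0.93), the lipid transfer protein gene LTP2-B (0.93), the kinase gene NEK6 (0.92) and TPT (0.91), named for a triose phosphate translocator. CHI came 13th by this measure. For CHI they were the glucosidase gene BGLU27 (0.94), the small heat shock protein gene HSP17.9B (0.94), mdr17 (0.93), BGLU28 (0.92) and LTP2-B at another probe set (0.92), and CHS1 came 19th.

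Pi21 had 336.0 to 1218.3 in salt-stressed IR29 and 186.6 to 368.7 on the other arrays, and HSP17.9B had 1332.1 to 1784.8 and 650.6 to 1395.5, so both overlapped. The neighbours were picked for a pattern that is high in salt-stressed IR29, so their values are given as a description with no test. HAK22 had 189.1 to 392.6 there and 43.6 to 104.5 on the other 8 arrays, and its IR29 minus FL478 log2 difference under salt was 1.87 ± 0.34 (SE). BGLU27 had 847.0 to 1146.7 there and 254.7 to 655.8 on the other arrays (1.44 ± 0.30, SE). LTP2-B, at the probe set nearest to CHS1, had 22103.1 to 28284.5 against 6065.1 to 13073.6 (1.26 ± 0.26, SE). At the probe set nearest to CHI it was far dimmer, with 187.8 to 257.5 against 75.2 to 177.5. The probe sets of HAK22 and of LTP2-B nearest to CHS1 are _x_at ones and may also match other genes.

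Sums of tissue marker genes differed between the IR29 groups, although limma called no gene of these lists between salt and control in either line. Between the salt-stressed lines it called 1 of the 13 growing point genes, against 1.73% of all probe sets, and none of the other lists. The summed intensity of 8 secondary wall and vascular genes was 12612 to 15437 in salt-stressed IR29 and 8104 to 9199 in its controls, with 8 of 8 above 0 on the log2 scale. The FL478 salt arrays had 11507 to 12378 and the FL478 controls 10922 to 11055, also without overlap, with 5 of 8 above 0. Between the salt-stressed lines, where CHS1 and CHI were called, this sum narrowly did not overlap either, with 12612 above 12378. There 6 of 8 genes lay above 0, against 47.9% of all probe sets. In control plants the IR29 sums lay below those of FL478, with 1 of 8 above 0 for IR29 minus FL478, against 50.5% of all. The 24 genes of dividing cells summed in IR29 to 45207 to 57167 under salt and 57359 to 68823 in controls, with 1 of 24 above 0. In FL478 they summed to 50445 to 58413 under salt and 57856 to 66868 in controls, which overlapped, with 7 of 24 above 0. Of all probe sets 48.7% lay above 0 between salt and control in IR29 and 50.6% in FL478. Leaf photosynthesis genes, 4 in number, overlapped in both lines, at 35577 to 40652 against 27266 to 47404 in IR29 and 36476 to 44537 against 39305 to 43444 in FL478. No gene of these lists lay under 16 on every array, and their part in the CHS1 and CHI results was not tested. The 1 root gene found, EXP8, had 31.0 to 75.2 under salt and 67.7 to 126.1 in controls in IR29, and 56.6 to 142.6 against 44.6 to 77.0 in FL478.

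For the actin control probe sets the 3' signal over the 5' signal, as log2, which rises as RNA degrades, was 1.44 to 1.74 in salt-stressed IR29 and 1.29 to 1.38 in its controls. In FL478 the salt arrays had 1.55 to 1.79 and the controls 1.18 to 1.54. GAPDH gave 1.10 to 4.18 on the salt arrays of IR29 and -0.49 to 1.00 on its controls, and overlapped in FL478 (1.42 to 2.82 and 0.24 to 2.79). Between the salt-stressed lines both ratios overlapped. The ratio of the third control gene, EF1a, overlapped between salt and control in both lines. The part of RNA quality in the CHS1 and CHI results was not tested.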

How the data were processed

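The authors deposited linear intensity values, 1 for each probe set on each array. The submitters' processing notes name GCOS 1.2, and the sources used here give no expression algorithm, scanner settings or detection calls. The 123 control probe sets were left out of the tests and the other 57258 were all tested, dim ones included. The array medians of log2(intensity + 16) differed by 0.47, above the limit of 0.1, so the arrays were quantile normalized. Each probe set was fitted in limma 3.58.1 (R 4.3.3) as 4 group means over 11 arrays, which leaves 7 residual degrees of freedom, with variances moderated along a trend on the mean. P-values are two-sided. The fit was tested on simulated data. Alternatives changed the pseudocount, the normalization, the filter, the variance model, the arrays used and the way CHS1 probe sets were combined. Tables and figures used Python 3.11.15, pandas 2.3.3, scipy 1.17.1 and matplotlib 3.10.9.

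Gene names came from the array annotation and, by gene ID, the RefSeq gene table of assembly ASM3414082v1, where all 17905 genes of the 22436 probe sets with 1 gene were found. Another 95 probe sets had several genes and 34727 were unnamed. That build is not the array's, so no coordinates are given. Members and lists were chosen with earlier results of these data known. Named genes are all 6 members, listed pathway genes called or at an unadjusted p under 0.05 in IR29 or in the difference of responses, and the 5 genes most like each member. Other pathway genes are named to give ranges. List names were matched to symbols and synonyms, since the tables hold no product names. A list gene is its brightest probe set. Arrays with the same number were not shown to be pairs: in FL478 the correlations of their deviations were -0.019, -0.019 and 0.030. No arrays held identical values.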

Additional observations from a re-analysis of the deposited data

How the results depend on the processing

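Of the alternatives, the one without both arrays that stand apart (FL478 salt replicate 2 and IR29 control replicate 1) was chosen after seeing the data. The replicate block called CHS1 in IR29 (log2 difference 2.44, adjusted p = 0.0469 in limma) with 14 probe sets called there and changed no other call of CHS1 at its bright probe set, and none of CHI. CHS1 in IR29 was also called with median centring (2.50), robust variances (2.32) and without IR29 salt replicate 3 (2.67). The CHI call under salt was lost with a pseudocount of 64 (1.17), without the variance trend (1.20) and with only the groups compared (1.20), and that of CHS1 with the mean of its 5 probe sets (0.77). In FL478 the CHS1 difference turned negative with median centring (-0.033), with the mean of the 5 probe sets (-0.20) and without both arrays that stand apart (-0.098), as did CHI in the last (-0.036). The A1_x_at probe set turned negative in FL478 with array weights (-0.083). The dimmest CHS1 probe set turned positive for IR29 minus FL478 under salt with median centring (0.048) and without both arrays (0.00056). The cause of these changes was not tested.

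Leaving out 1 array at a time, CHS1 at its bright probe set ran from -0.098 to 0.18 in FL478, 1.98 to 2.67 in IR29, 1.91 to 2.60 for the difference of responses, -0.45 to 0.21 between control plants and 1.94 to 2.48 under salt. CHI ran from -0.036 to 0.50, 1.04 to 1.36, 0.71 to 1.25, 0.14 to 0.48 and 1.00 to 1.54. The second CHS1 probe set ran from -0.55 to 0.013 between control plants. The A1_at probe set ran from -0.49 to 0.89 in IR29, -0.026 to 1.35 for the difference, -1.10 to 0.27 between controls and -0.28 to 0.66 under salt. The A1_x_at probe set ran from -0.36 to 0.57 in FL478 and -0.64 to 0.29 between controls. The dimmest CHS1 probe set ran from -0.80 to 0.033 in FL478, -0.42 to 0.16 in IR29, -0.17 to 0.67 for the difference, -0.73 to 0.097 between controls and -0.16 to 0.015 under salt.

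Over all probe sets, limma called 5 in FL478, 3 in IR29, 0 in the difference, 466 between control plants and 992 under salt. In FL478 the count was 8 with a pseudocount of 1, 2 with 64, 1 with median centring, 8 with the filter on dim probe sets, 1 without the trend, 8 with robust variances, 2 with array weights, 0 with only the groups compared and 0 without both arrays. In IR29 it was 6 with a pseudocount of 64, 29 with median centring, 5 with the filter, 6 with robust variances, 5 with array weights, 0 with only the groups compared and 6 without both arrays. Between controls it was 150 with only the groups compared, and under salt 1660 with array weights. Leaving out 1 array gave 0 to 4 in FL478, 0 to 65 in IR29 (65 without IR29 control replicate 2), 0 to 21 in the difference (21 without that array; without either IR29 control the group is 1 array, assumed to vary like the other groups), 267 to 525 between controls and 543 to 1279 under salt. The log2 differences of the 3 dim CHS1 probe sets depend on the pseudocount, and signal over background limits them. The filter removed the dimmest CHS1 probe set, and a fit of only the groups compared gives no difference of responses, so neither has a value there.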
